A study of Homo sapiens with 6 samples.

Results

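Epithelial cells are held together by keratin filaments, desmosomes and tight junctions, and 35 genes that encode parts of these structures were followed in PC-3 cells with and without cepharanthine hydrochloride. The genes were listed by name, by a rule that uses no measured value but with earlier results of these data known, and make up 35 of the 38843 rows of the deposited gene table. They comprise 5 type II keratins, 6 type I keratins, 10 tight junction membrane proteins, 3 tight junction plaque proteins, 3 desmosomal cadherins, 6 desmosomal plaque proteins and 2 other epithelial adhesion proteins. PC-3 is an established human prostate cancer line, derived from a bone metastasis, labelled WT (wild type) in both groups and known to lack functional p53 and alpha-catenin. Messenger RNA was sequenced on day 3 from 3 control libraries and from 3 libraries of cells given 5 µM cepharanthine hydrochloride, the salt of a bisbenzylisoquinoline alkaloid. All cells were kept in DMEM with fetal bovine serum, and the labels name no vehicle for the controls. The comparison belongs to a study of how the compound acts on prostate cancer cells.

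Keratins are intermediate filament proteins that assemble only as pairs of a type I (acidic) with a type II (basic) chain. The filaments end at desmosomes, where the cadherins of the desmoglein and desmocollin families bridge neighbouring cells and are tied by plakoglobin and plakophilins to desmoplakin, which binds keratin. Tight junctions seal the space between cells with claudins, occludin and related membrane proteins, which are tethered to actin by plaque proteins of the ZO family. In the prostate KRT8 and KRT18 are the luminal keratins, and KRT5, KRT14 and KRT15 mark basal cells.

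Total counts were 52774506 to 68241156 per library. Levels are given as CPM, counts scaled to library size with TMM factors, and 3 counts, the limit that a count of 0 allows, correspond to 0.0440 to 0.0568 CPM before that scaling, for counting error only. Whether replicate libraries stem from separate cultures is not stated in the labels, and the p-values therefore reflect the variation among these libraries, possibly technical. Mitochondrially encoded genes took 8.75% to 12.2% of counts in controls and 4.86% to 6.61% in treated libraries, and leaving them out gave the same 8 higher and 9 lower counts of members reported below. The epithelial markers KRT8, KRT18 and EPCAM were present in every library. Of the luminal prostate markers, TMPRSS2 (67.7 ± 5.64 CPM in controls to 42.6 ± 1.49 CPM in treated libraries, SD, n = 3 per group) and HOXB13 (100.5 ± 4.27 to 63.4 ± 9.35 CPM) were lower with the compound. The leukocyte markers summed to 3.60 to 4.66 CPM in controls and 2.62 to 3.67 CPM in treated libraries. The 5 endothelial markers summed to 56.1 to 64.1 and 26.5 to 30.2 CPM, nearly all from PECAM1 and KDR, with CDH5, VWF and TEK under 1 CPM in every library. The 7 fibroblast markers summed to 125 to 152 and 69.3 to 75.9 CPM, nearly all from COL1A1 and COL3A1, with PDGFRA, DCN and THY1 under 1 CPM in every library. In bulk RNA, fewer cells of a type and less RNA per cell cannot be told apart.

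Of the 35 genes 34 could be tested, and the module split in direction: 8 were higher and 9 were lower with cepharanthine, and 17 did not pass. A member counted as higher or lower when its Benjamini-Hochberg adjusted p from edgeR's quasi-likelihood test was under 0.05, with adjustment over all 21965 genes tested. By this rule 50% of the members tested were called, against 27.9% of all genes tested. Among genes with a mean FPKM (fragments per kilobase of gene, scaled to library size) of at least 1, where calls are more frequent, the shares were 53.3% of 30 members and 39.6% of 13383 genes. Among the called members the largest rises were those of OCLN, CLDN12, DSG2 and KRT10, and the largest falls those of KRT15, KRT13, PPL, DSC3 and KRT80. The median log2 fold change of the members tested was -0.07, and that of all genes tested was -0.02. In 19 members (55.9%) the 3 values of a group all lay on the same side of the other group, against 43.4% of all genes tested, with the treated values above in 8 and below in 11.

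**Figure D1:**
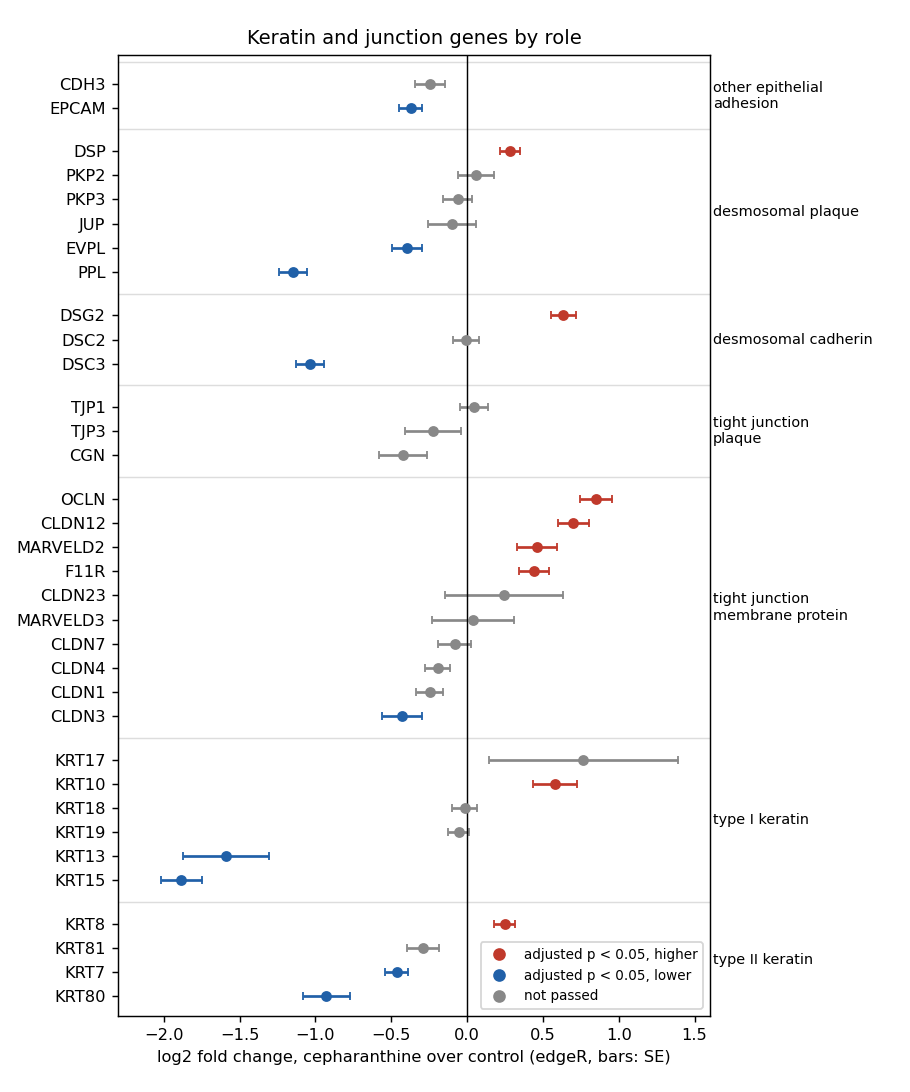
Log2 fold change of the 34 tested members, treated over control, grouped by role, with bars for the SE of the edgeR fit (n = 3 libraries per group). Red points passed higher (8 genes), blue points passed lower (9 genes) and grey points did not pass, and each role except the tight junction plaque holds a called gene.

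The type II keratins were led by KRT81, a hair cortex keratin that was the most abundant member per length in PC-3, at a mean of 494 FPKM over all libraries. KRT81 (chr12:52285913-52291534, GRCh38, minus strand) read 1048, 1399 and 1166 CPM in the control libraries and 965, 1068 and 921 CPM in the treated ones. The treated values were on the low side but the second exceeded the first control, so the groups overlapped. KRT81 did not pass at a log2 fold change of -0.29 ± 0.11 (SE, edgeR adjusted p = 0.0712), though it passed as lower without control replicate 1 (-0.38, edgeR adjusted p = 0.0309) and with DESeq2 (adjusted p = 0.0228). Its transcripts share 35.9% of their 75-base windows with transcripts of other genes, 32.4% with its neighbour KRT86, and the gene bodies of KRT81 and KRT86 overlap by 5622 bases on opposite strands. Counts of this keratin are therefore uncertain as to the copy they came from. KRT86 itself was at 28.6 ± 5.52 CPM in controls and 24.3 ± 2.98 CPM in treated libraries (-0.23 ± 0.15) and did not pass.

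KRT7, a keratin of simple ductal epithelia, fell. It read 519, 484 and 495 CPM in controls and 368, 385 and 332 CPM in treated libraries. Every treated library lay below every control, and the log2 fold change was -0.47 ± 0.08 (edgeR adjusted p = 0.00168). An antisense gene, KRT7-AS, lies within KRT7 over 2401 bases and also fell, from 65.2 ± 1.65 to 35.5 ± 4.80 CPM. The sources used here do not say whether counting used strand, so reads of the overlap cannot be assigned to either gene with certainty.

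The other type II keratins went in opposite directions. KRT80, an epithelial keratin, read 48.0, 31.5 and 42.4 CPM in controls and 20.9, 24.2 and 18.9 CPM in treated libraries. The lowest control was above the highest treated library, and KRT80 fell by 0.93 ± 0.15 on the log2 scale (edgeR adjusted p = 0.00170). KRT8, the type II partner of KRT18, read 239, 234 and 216 CPM in controls and 267, 273 and 278 CPM in treated libraries. The groups did not overlap and KRT8 was higher by a small margin (0.25 ± 0.07, edgeR adjusted p = 0.0242). This call was lost when control replicate 3 (edgeR adjusted p = 0.107), cepharanthine replicate 1 (0.0589), cepharanthine replicate 2 (0.0772) or cepharanthine replicate 3 (0.0536) was left out, and the value stayed between 0.21 and 0.27 in those fits. The KRT8 pseudogenes held 3888 counts in 31 rows, 4.43% of the counts of KRT8. KRT5, the basal keratin, had 7 counts in the first control and 8 in the first treated library and 0 in the other 4, and was not tested.

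The type I keratins held the largest falls of the module. KRT15, a keratin of basal cells (chr17:41513745-41522529, minus strand), read 175, 201 and 193 CPM in controls and 55.5, 58.7 and 40.1 CPM in treated libraries. The groups were far apart, and the log2 fold change was -1.88 ± 0.13, or 3.69-fold lower (edgeR adjusted p = 1.5e-05). A microRNA gene, MIR6510, lies within KRT15 on the same strand and was lower too (-2.37 ± 0.45), with 207 counts in all, and its reads cannot be told from those of its host. KRT13, the mucosal type I keratin (chr17:41500981-41505613, minus strand), was scarce, at 2.06, 2.80 and 2.20 CPM in controls and 0.930, 0.762 and 0.654 CPM in treated libraries. All treated values were below all controls, and KRT13 fell by 1.59 ± 0.28 on the log2 scale (edgeR adjusted p = 0.00252). An antisense RNA shares 10.7% of the 75-base windows of KRT13.

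KRT10, the suprabasal keratin of epidermis, went the other way. It read 14.9, 16.0 and 16.5 CPM in controls and 18.9, 24.3 and 27.7 CPM in treated libraries, which were all higher and more spread. KRT10 rose by 0.58 ± 0.14 (edgeR adjusted p = 0.0133), a call that was narrowly lost without control replicate 1 (0.54, edgeR adjusted p = 0.0512) or cepharanthine replicate 3 (0.45, edgeR adjusted p = 0.0505).

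The abundant type I keratins did not pass. KRT19, the tailless keratin of simple epithelia, read 503, 513 and 473 CPM in controls and 478, 489 and 464 CPM in treated libraries, with interleaved groups (-0.06 ± 0.07). KRT18 read 189.6, 191 and 166 CPM in controls and 169.5, 180.5 and 190.3 CPM in treated libraries, also interleaved (-0.02 ± 0.08). Its locus (chr12:52948871-52952900, plus strand) overlaps that of KRT8 by 1050 bases on the opposite strand, and 13.3% of its 75-base windows are shared with other genes, KRT8 and KRT18 pseudogenes among them. KRT17, a keratin of appendages and injured skin, had 6 to 43 counts in controls and 41 to 65 in treated libraries and did not pass (0.77 ± 0.63).

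**Figure D2:**
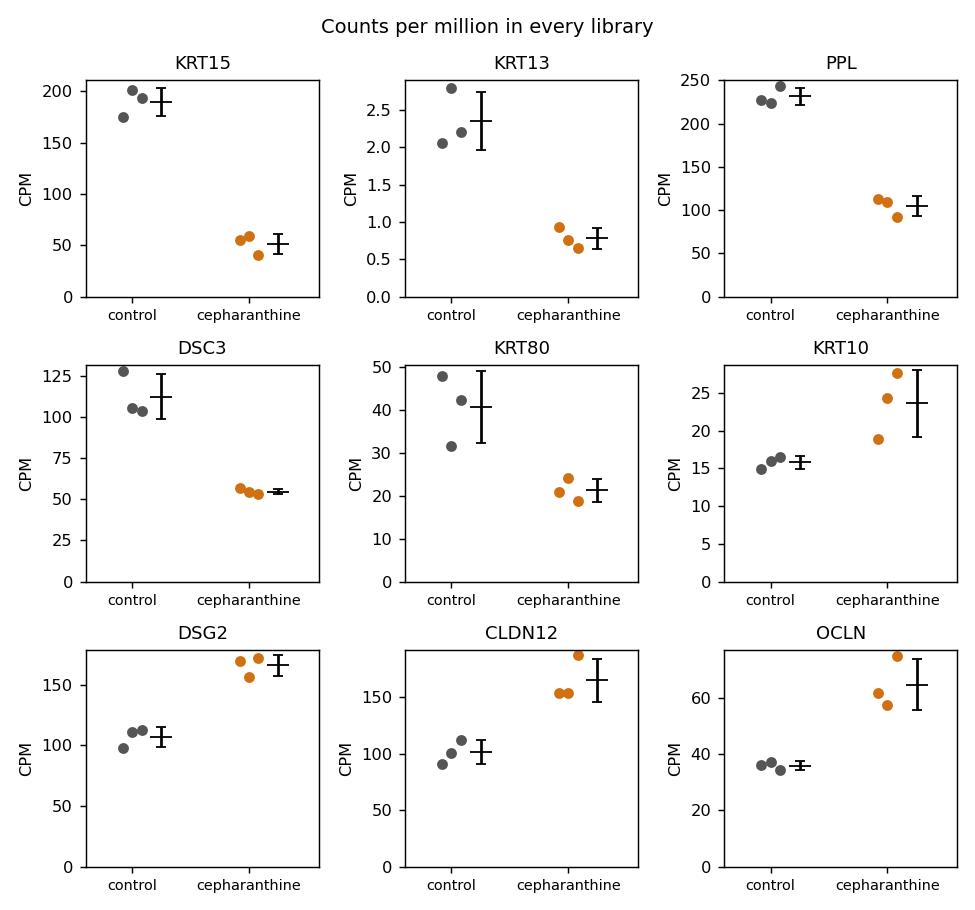
CPM in every library for the 9 members that passed with an absolute log2 fold change of at least 0.5, with the bar at the mean and the whiskers at 1 SD (n = 3 libraries per group), each panel on its own linear axis from 0. No treated point overlaps a control point in any panel, from KRT15 (189.8 ± 13.4 to 51.4 ± 9.94 CPM) to OCLN (35.9 ± 1.54 to 64.7 ± 9.09 CPM).

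On a per-length scale, the keratin pool of these cells was dominated by a few genes. KRT81 made up 56.4% ± 3.64 of the summed FPKM of the 11 keratins in controls and 55.0% ± 1.17 in treated libraries, followed by KRT19 (19.3% ± 1.39 and 22.0% ± 0.660). The sum was 872, 1083 and 883 FPKM in controls and 821, 834 and 817 FPKM in treated libraries. All treated sums were below all controls, and the means were 946 ± 119 and 824 ± 9.09 FPKM, a difference about as large as the control SD. The FPKM of all genes also summed to less in treated libraries. Rescaled to TPM, the keratin sums were 3025, 4064 and 3047 in controls and 3233, 3417 and 3332 in treated libraries, with overlap. In CPM they were 2739, 3072 and 2772 in controls and 2345, 2505 and 2273 in treated libraries, without overlap. Whether the groups separated therefore depended on the scale. The share of KRT15 went from 2.88% ± 0.135 to 0.923% ± 0.143 of the pool, and that of KRT8 from 3.04% ± 0.290 to 4.27% ± 0.264. The ratio of type II to type I keratin was 2.54 ± 0.229 in controls and 2.28 ± 0.121 in treated libraries in FPKM, but 2.22 ± 0.117 and 2.23 ± 0.0898 in CPM, so its direction depended on the scale. The ratio of KRT8 to KRT18, the luminal pair, read 0.562, 0.547 and 0.579 in controls and 0.702, 0.676 and 0.651 in treated libraries in FPKM, with no overlap. In CPM it was 1.26 ± 0.0361 and 1.52 ± 0.0571. These pool values are descriptions and were not tested.

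**Figure D3:**
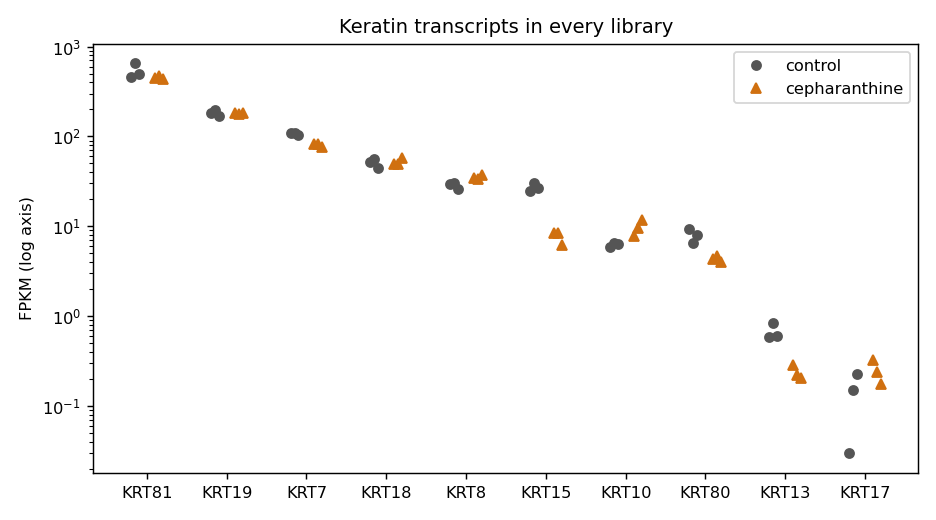
FPKM of the 10 tested keratin members in every library on a log axis, ordered by mean level, with grey circles for the 3 controls and orange triangles for the 3 treated libraries. KRT81, KRT19 and KRT7 lead in both groups, and KRT15 passes from a mean of 27.2 to 7.61 FPKM.

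Set against the summed gene counts, the FPKM values imply a fixed length per gene that was longer than the principal transcript of GENCODE 29, most of all for KRT8 (7897 against 2126 bases). The excess includes any difference in the total used to scale FPKM, so it cannot be read as gene length alone. For CLDN3 the implied length was 1462 bases, while its principal transcript of 1274 bases spans the whole locus. Per kilobase of principal transcript KRT81, KRT19 and KRT7 kept ranks 1, 2 and 3 among the 35 members, while KRT8 moved from rank 6 to 4 and KRT18 from 4 to 5. The middle of the order depended on the length used, with CLDN12 moving from rank 12 to 7, EPCAM from 14 to 8, DSG2 from 8 to 13 and CLDN3 from 11 to 16.

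Keratin genes lie in clusters on chromosomes 12 and 17. Some called genes lay among neighbours that had too few reads or did not pass, and others lay next to each other. On chromosome 12 KRT80 (-0.93) and KRT7 (-0.47), consecutive among the keratin genes, both fell. Among all genes tested 14.7% were higher and 13.2% lower. On chromosome 12, 11 of 18 annotated keratin genes in the table could be tested, and 1 was higher and 3 lower. These falls include KRT4, which was under 1 CPM in every library and whose call was unstable, as given below. On chromosome 17, 10 of 20 could be tested, and 2 were higher and 4 lower. KRT13, KRT15 and KRT19 follow each other there, with 8131 bases between the first pair and 1087 bases between KRT15 and KRT19, and the first pair fell while KRT19 did not pass. Among the keratin genes of the 2 clusters the largest fall was that of KRT37, a hair keratin outside the member list that was singled out after its value was seen (2.45 ± 0.447 to 0.367 ± 0.0615 CPM, -2.73 ± 0.31, edgeR adjusted p = 1.98e-04).

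**Figure D4:**
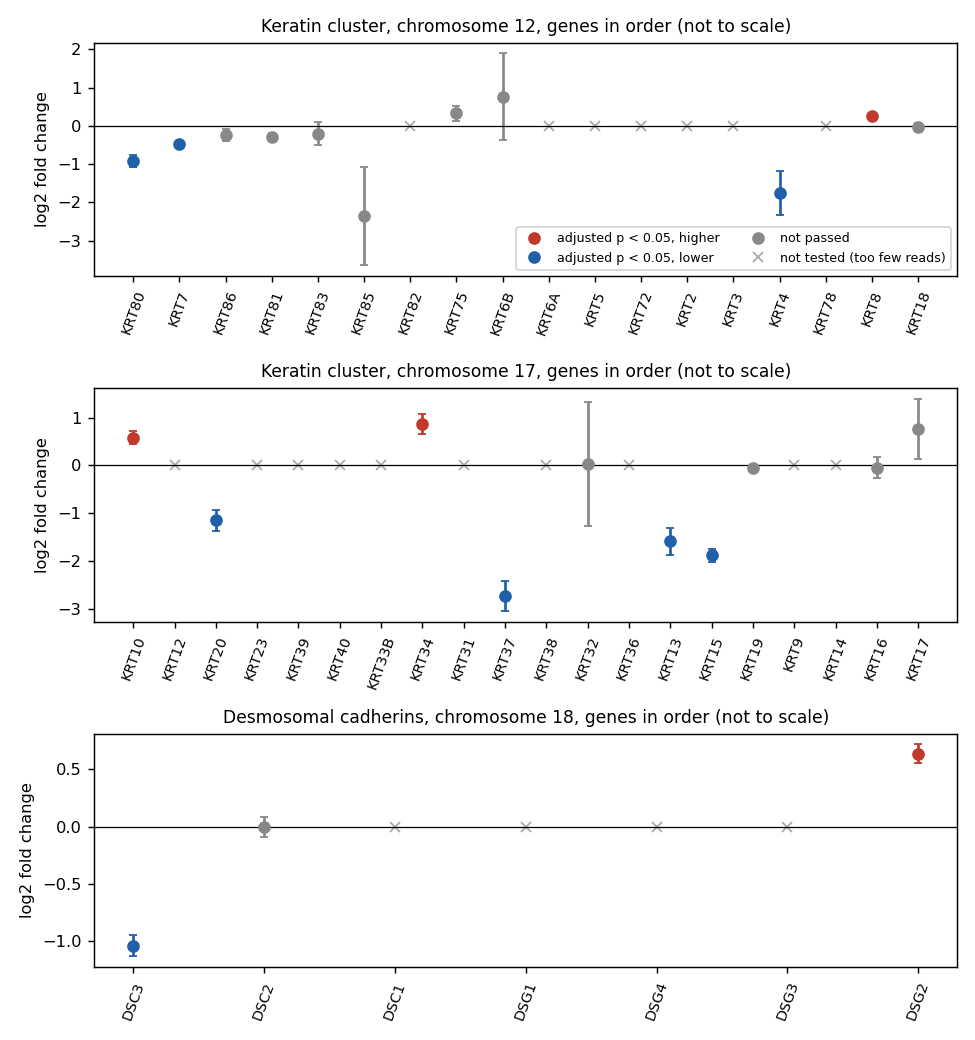
Log2 fold change, treated over control, with SE, of keratin genes on chromosomes 12 and 17 and of desmosomal cadherin genes on chromosome 18 in genomic order, not to scale, where crosses at 0 mark genes with too few reads to test. Called and not called genes lie side by side, as for KRT13 (-1.59) and KRT15 (-1.88), both lower, and KRT19 (-0.06), which did not pass, on chromosome 17.

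Of the 10 tight junction membrane proteins, all tested, 4 were higher and 1 was lower. Among all genes tested 14.7% were higher and 13.2% lower, and among those with a mean FPKM of at least 1 the shares were 22.1% and 17.4%. OCLN encodes occludin (chr5:69492292-69558104, plus strand) and read 36.1, 37.3 and 34.2 CPM in controls and 61.6, 57.5 and 74.9 CPM in treated libraries. The lowest treated library was well above the highest control, and OCLN rose by 0.85 ± 0.10, or 1.80-fold (edgeR adjusted p = 2.8e-04). CLDN12, a claudin without the usual tail motif that binds ZO proteins, read 91.1, 101 and 113 CPM in controls and 154, 154 and 187 CPM in treated libraries. These groups did not overlap either, and CLDN12 rose by 0.70 ± 0.10 (edgeR adjusted p = 9.4e-04). The locus of CLDN12 overlaps GTPBP10 and CDK14 on the same strand, and 10.3% of its 75-base windows are shared with other genes. GTPBP10 did not pass (0.20 ± 0.10) and CDK14 fell (-0.90 ± 0.10).

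F11R encodes the junctional adhesion molecule JAM-A and read 102, 128 and 113 CPM in controls and 146, 147 and 172 CPM in treated libraries. All treated values were above all controls, and F11R rose by 0.44 ± 0.10 (edgeR adjusted p = 0.00875). A readthrough gene on the same strand shares most of the 33.7% of its windows found elsewhere but held 32 counts in all. MARVELD2 encodes tricellulin, which seals the corners where 3 cells meet, and went from 11.6 ± 1.14 to 16.0 ± 1.39 CPM (0.46 ± 0.13, edgeR adjusted p = 0.0244). That call was lost without control replicate 1 (0.39, edgeR adjusted p = 0.0844), cepharanthine replicate 2 (0.43, edgeR adjusted p = 0.0836) or cepharanthine replicate 3 (0.42, edgeR adjusted p = 0.0772).

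CLDN4, the most abundant tight junction member at a mean of 50.5 FPKM, read 304, 307 and 261 CPM in controls and 243, 247 and 272 CPM in treated libraries. CLDN4 and CLDN3 are each receptors for a clostridial enterotoxin. The groups overlapped through the third control and the third treated library, and CLDN4 did not pass (-0.20 ± 0.09, edgeR adjusted p = 0.121). CLDN3, its neighbour at a distance of 29271 bases on chromosome 7, was lower (29.8 ± 5.16 to 22.1 ± 1.71 CPM, -0.43 ± 0.13, edgeR adjusted p = 0.0341). The CLDN3 call held only without control replicate 2 among the 6 fits that leave out a library, and its adjusted p was 0.132 without control replicate 1, 0.0900 without control replicate 3, 0.125 without cepharanthine replicate 1, 0.0653 without cepharanthine replicate 2 and 0.0688 without cepharanthine replicate 3 (edgeR). CLDN1, the barrier claudin of epidermis, had no overlap between groups (64.4 to 73.5 against 53.5 to 63.0 CPM) but did not pass (-0.25 ± 0.09, edgeR adjusted p = 0.0635). It passed without control replicate 2 (-0.31, edgeR adjusted p = 0.0374). CLDN7 (-0.08 ± 0.11), CLDN23 (0.24 ± 0.39) and MARVELD3 (0.04 ± 0.27) did not pass, the latter pair at under 5 CPM in every library.

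MARVELD2 and OCLN belong to the same protein family and are neighbours on chromosome 5 in the same orientation, 47961 bases apart, and both passed as higher. Their promoters are shown because the pair moved together. RefSeq on GRCh38.p14 gave a promoter for 18 of the 35 members, and the 250 bases before the transcript start that RefSeq gives are printed in the gene's own orientation. Some of these starts differ from those of GENCODE 29, so that the OCLN window lies inside the gene as annotated there and those of MARVELD2 and, among the cadherins shown later, DSC3 run into it. Capitals mark CACCTG, the E-box read by repressors such as SNAI and ZEB proteins, and GGGCGG, the GC box read by SP and KLF factors, each on either strand (CAGGTG and CCGCCC on the other). The MARVELD2 window is chr5:69414866-69415115 and the OCLN window, the first of the 2 listed for that gene, is chr5:69492297-69492546, both plus strand.
MARVELD2: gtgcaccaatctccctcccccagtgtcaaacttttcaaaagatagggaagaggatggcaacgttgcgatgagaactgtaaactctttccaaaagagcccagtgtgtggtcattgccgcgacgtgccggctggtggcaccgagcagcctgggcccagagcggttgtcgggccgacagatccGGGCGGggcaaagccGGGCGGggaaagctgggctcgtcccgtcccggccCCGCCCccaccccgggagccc
OCLN: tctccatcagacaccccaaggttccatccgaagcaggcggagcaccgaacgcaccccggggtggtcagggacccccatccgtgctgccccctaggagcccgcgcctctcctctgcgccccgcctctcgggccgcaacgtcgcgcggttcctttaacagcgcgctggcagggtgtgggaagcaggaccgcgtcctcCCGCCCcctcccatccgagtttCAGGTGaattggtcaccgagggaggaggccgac
The MARVELD2 window held 3 GC boxes and no E-box, and that of OCLN 1 of each. The E-box was in 17.49% and the GC box in 42.64% of the 35116 promoter windows of this length. A letter match is not evidence of a bound factor.

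Of the 3 tight junction plaque genes 0 passed with edgeR and 0 with DESeq2, and 1 had an unadjusted p under 0.05 in edgeR. TJP1 encodes ZO-1 and read 213, 171 and 199 CPM in controls and 206, 208 and 187 CPM in treated libraries, with interleaved groups (0.04 ± 0.09). TJP3, which encodes ZO-3, read 9.46, 6.33 and 7.80 CPM in controls and 7.08, 7.13 and 5.97 CPM in treated libraries, also interleaved (-0.22 ± 0.18). CGN encodes cingulin, which links the plaque to actomyosin, and read 10.24 to 12.3 CPM in controls and 7.67 to 10.16 CPM in treated libraries, which barely separated the groups. CGN did not pass (-0.42 ± 0.16, edgeR adjusted p = 0.0722), though it passed without cepharanthine replicate 1 (-0.56, edgeR adjusted p = 0.0398).

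Desmosomal cadherins diverged. DSG2, the desmoglein of simple epithelia (chr18:31498177-31549008, plus strand), read 97.7, 111 and 113 CPM in controls and 169.7, 156 and 172 CPM in treated libraries. All treated libraries were higher, and DSG2 rose by 0.64 ± 0.08, or 1.55-fold (edgeR adjusted p = 3.6e-04). DSC3, a desmocollin of basal layers (chr18:30989365-31042815, minus strand), read 128, 105 and 104 CPM in controls and 56.6, 54.1 and 53.2 CPM in treated libraries. The treated libraries were tightly grouped far below the controls, and DSC3 fell by 1.04 ± 0.09 on the log2 scale, or 2.05-fold (edgeR adjusted p = 4.5e-05). DSC2, the widespread desmocollin 16024 bases from DSC3, read 45.9 to 54.1 CPM over all libraries and did not pass (-0.01 ± 0.09). Per length, DSG2 went from 15.1 ± 1.39 to 24.4 ± 2.29 FPKM, DSC3 from 12.5 ± 1.44 to 6.31 ± 0.326 FPKM and DSC2 from 3.35 ± 0.118 to 3.48 ± 0.449 FPKM.

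The promoter windows of DSG2 (chr18:31497927-31498176, plus strand) and DSC3 (chr18:31042743-31042992, minus strand) are shown because these cadherins of the same cluster moved in opposite directions. Capitals mark the same motifs as above.
DSG2: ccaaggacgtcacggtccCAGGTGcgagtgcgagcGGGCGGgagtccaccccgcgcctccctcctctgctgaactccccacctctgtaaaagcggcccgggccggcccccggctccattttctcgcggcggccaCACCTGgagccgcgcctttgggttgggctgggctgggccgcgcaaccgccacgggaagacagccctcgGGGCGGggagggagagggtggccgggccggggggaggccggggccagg
DSC3: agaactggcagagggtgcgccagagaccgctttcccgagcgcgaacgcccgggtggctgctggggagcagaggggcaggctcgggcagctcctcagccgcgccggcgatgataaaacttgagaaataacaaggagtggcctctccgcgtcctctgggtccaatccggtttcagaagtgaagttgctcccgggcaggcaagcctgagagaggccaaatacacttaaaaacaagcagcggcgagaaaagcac
The DSG2 window held 2 E-boxes and 2 GC boxes, and 75.2% of its bases were G or C. That of DSC3 held none of these letter runs, at 60.4% G or C. For DSC2, the cadherin between them that did not pass, 1 listed window held 1 E-box and 1 GC box, and the other 2 GC boxes. AACNNGTT, for GRHL factors, was also searched and occurred in none of the windows printed here. Whether these letters bear on the directions was not tested.

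Among desmosomal plaque genes the plakins moved in different directions. PPL encodes periplakin, which joins keratin filaments to desmosomes and to the cornified envelope (chr16:4882507-4937148, minus strand), and read 228, 224 and 243 CPM in controls and 113, 109 and 91.5 CPM in treated libraries. The groups were far apart, and PPL fell by 1.15 ± 0.09 on the log2 scale, or 2.21-fold (edgeR adjusted p = 2.6e-05). EVPL, which encodes its partner envoplakin, fell less, from 72.0 ± 2.88 to 54.8 ± 7.12 CPM (-0.39 ± 0.10, edgeR adjusted p = 0.0145). The EVPL call was narrowly lost without control replicate 1 (edgeR adjusted p = 0.0517) or control replicate 3 (edgeR adjusted p = 0.0523). DSP encodes desmoplakin, the plakin that every desmosome needs, and read 199.5, 187 and 198 CPM in controls and 239, 242 and 229 CPM in treated libraries. Its treated values were all higher, and DSP rose by 0.28 ± 0.07 (edgeR adjusted p = 0.0116), a call lost without cepharanthine replicate 2 (0.27, edgeR adjusted p = 0.0513).

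Plakoglobin and the member plakophilins did not pass. JUP (plakoglobin) ranged over 52.9 to 78.1 CPM with wide spread in both groups (-0.10 ± 0.16). PKP2 (0.06 ± 0.12) and PKP3 (-0.06 ± 0.10) were at 19.3 to 25.8 and 31.1 to 38.0 CPM.

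Of the remaining adhesion genes, EPCAM, the epithelial cell adhesion molecule, read 52.6, 56.5 and 54.8 CPM in controls and 43.4, 43.1 and 40.2 CPM in treated libraries. The groups did not overlap, and EPCAM fell by 0.37 ± 0.07 on the log2 scale (edgeR adjusted p = 0.00480). CDH3, which encodes P-cadherin, read 44.3, 38.3 and 40.9 CPM in controls and 34.5, 38.3 and 31.5 CPM in treated libraries. The second library of each group met at 38.3 CPM, and CDH3 did not pass (-0.25 ± 0.10, edgeR adjusted p = 0.0912).

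In limma fits, rescaling FPKM to the same total in every library (TPM) put the median log2 fold change over all genes at 0.26, against 0.07 for FPKM as deposited. Against that raised centre KRT7 (-0.23), CLDN3 (-0.18), EVPL (-0.16) and EPCAM (-0.13) were no longer called lower, and TJP1 was called higher (0.28, limma adjusted p = 0.0302). No called member changed sign. The calls of KRT80, KRT15, DSC3 and PPL as lower and of CLDN12, OCLN and DSG2 as higher were made in this fit as in all others run, and KRT13 passed as lower in every fit that tested it.

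Genes of the same structures outside the member list showed a similar mixture. They were taken from lists written with earlier results of these data known, and 14.7% of all genes tested were higher and 13.2% lower. Of 34 other tight junction genes tested 8 rose and 5 fell, with a median log2 fold change of 0.14. The strongest calls were CLDN14, a claudin of the inner ear and kidney (4.36 ± 1.35 to 20.8 ± 2.85 CPM, 2.26 ± 0.23, edgeR adjusted p = 9.6e-05), the adhesion molecule ESAM (-0.78 ± 0.09, edgeR adjusted p = 1.8e-04) and CLDN11, the claudin of myelin and testis (128 ± 11.1 to 52.8 ± 11.7 CPM, -1.28 ± 0.15, edgeR adjusted p = 2.2e-04). Of 3 other desmosomal genes tested, the plakophilin PKP1 rose (175 ± 5.58 to 251 ± 2.40 CPM, 0.52 ± 0.07) and PKP4 fell (-0.33 ± 0.08), while PERP, a tetraspan desmosomal protein, did not pass (0.19 ± 0.08). DSG1 and DSG3 were at 0 in all 6 libraries. Of 9 other keratins listed and tested KRT34 rose (0.86 ± 0.21) and KRT20 fell (5.41 ± 0.590 to 2.44 ± 0.526 CPM, -1.15 ± 0.22). KRT4, under 1 CPM, passed as lower (-1.76 ± 0.57, edgeR adjusted p = 0.0437). The list did not hold KRT37, whose larger fall is given above. KRT34 lost its call without cepharanthine replicate 3 (edgeR adjusted p = 0.0533), and KRT4 kept its call only without cepharanthine replicate 2 among the fits that leave out a library, with adjusted p of 0.0565 to 0.150 in the others.

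The list of hemidesmosome and linker genes held falls but no rises. Of 9 hemidesmosome and linker genes tested 6 fell and 0 rose, with a median of -0.46, and ITGA6, the laminin-binding integrin chain, went from 788 ± 22.7 to 417 ± 8.85 CPM (-0.92 ± 0.07, edgeR adjusted p = 1.6e-05). PLEC (plectin, -0.56 ± 0.08) and the spectraplakin MACF1 (-0.46 ± 0.08) also fell, while DST, which encodes the hemidesmosomal plakin BP230 among other forms, did not pass (0.10 ± 0.07). By unadjusted p under 0.05, or with DESeq2, 0 of these genes rose as well. After rescaling to TPM 3 of these genes were called lower and 1 higher. Among 12 adherens junction genes 3 rose and 3 fell, with NECTIN4 (0.96 ± 0.21) and the p120 catenin CTNND1 (0.59 ± 0.15) higher and the nectin-like receptor PVR lower (-0.43 ± 0.10). The adherens rises numbered 1 without control replicate 3 or cepharanthine replicate 1, and the falls 1 without control replicate 3 or cepharanthine replicate 2. CTNND1 was not called without control replicate 2 (edgeR adjusted p = 0.0604), control replicate 3 (0.0759) or cepharanthine replicate 1 (0.0664). CDH1, which encodes E-cadherin, did not pass (87.7 ± 6.12 to 79.6 ± 1.27 CPM, -0.14 ± 0.07), and alpha-catenin, CTNNA1, was at 2.11 ± 0.492 and 3.00 ± 0.713 CPM.

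Transcription and splicing factors of epithelial genes were mixed as well. Of the 12 genes reported here, all tested, 2 rose and 2 fell, while 4 fell without control replicate 2 and 4 rose after rescaling to TPM. EHF, an ETS factor of epithelia, went from 105 ± 26.4 to 30.1 ± 3.67 CPM (-1.80 ± 0.16, edgeR adjusted p = 5.2e-05), while the ETS factor ELF3 (0.58 ± 0.07) rose. GRHL2, a grainyhead factor that activates epithelial junction genes, fell from 8.37 ± 0.628 to 4.30 ± 0.762 CPM (-0.96 ± 0.18, edgeR adjusted p = 0.00331). Of the cornified envelope genes 3 were tested and 0 passed with edgeR, while 1 had an unadjusted p under 0.05 and 1 passed with DESeq2. That gene was FLG, the filaggrin gene (-1.22 ± 0.41, edgeR adjusted p = 0.0521, and DESeq2 adjusted p = 0.0483), which also passed as lower without cepharanthine replicate 1 (-1.75, edgeR adjusted p = 0.0138).

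**Figure D5:**
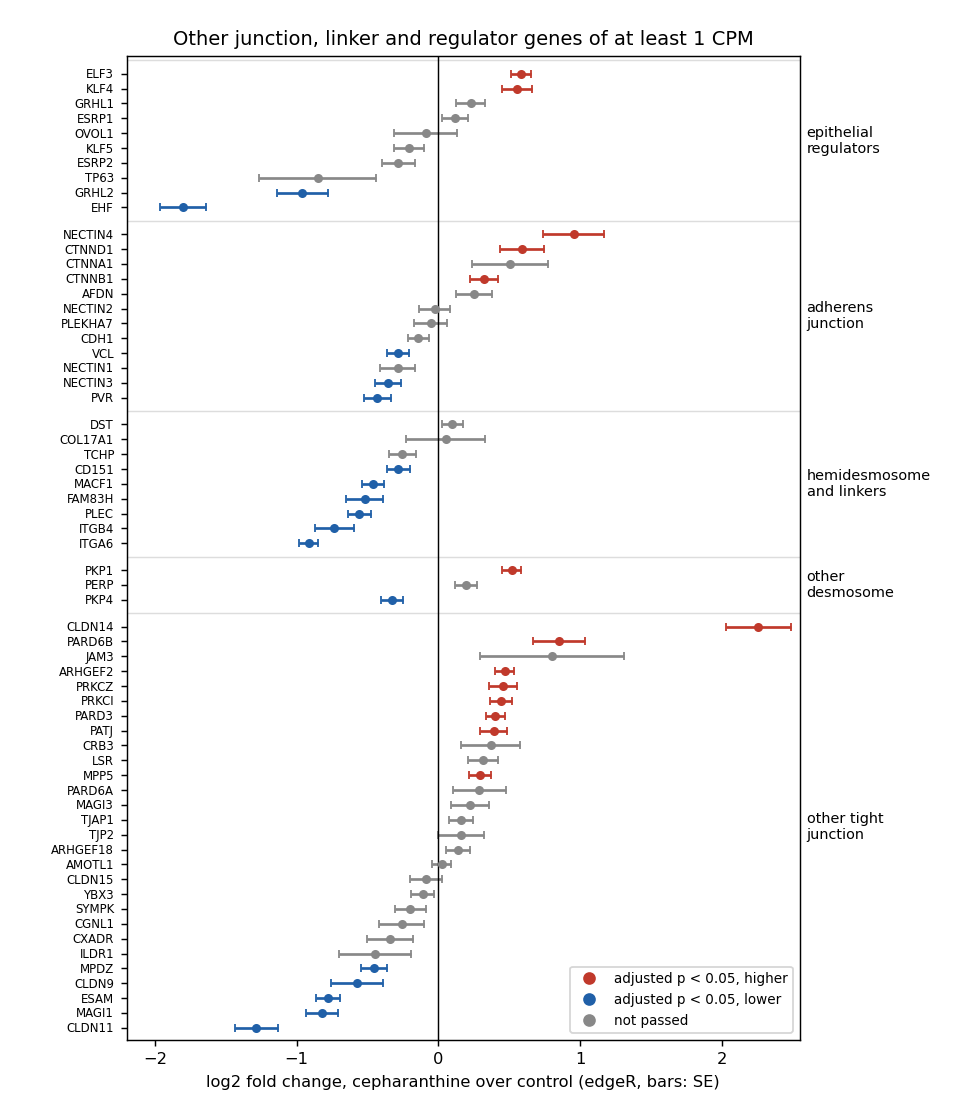
Log2 fold change, treated over control, with SE, of 62 genes outside the member list with at least 1 CPM on average, grouped by list, where red points passed higher, blue points passed lower and grey points did not pass. The hemidesmosome and linker list has 6 falls and 0 rises, and the other 4 lists plotted hold both directions.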

How the data were processed

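Messenger RNA libraries were made, per the labels' protocols, from TRIzol-extracted RNA with the SMARTER kit for mRNA sequencing. The deposited table held whole-number read counts and FPKM per gene and library, so named per the file headers, and the authors' FPKM values imply a fixed length for each gene. Builds named by the submitters' processing notes are GRCm38, mm10 and hg38, and the table's gene coordinates matched GENCODE 29 on GRCh38. Aligner, read counter, strandedness and annotation version were not given in the sources used here. Control columns bear other names than the control labels and were matched to them by condition and number.

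In R 4.3.3, edgeR 4.0.16 filtered the counts with filterByExpr, applied TMM factors and ran its quasi-likelihood test, two-sided, with Benjamini-Hochberg adjustment over 21965 genes. The SE was the absolute log2 fold change divided by the square root of F. Means and SDs are over 3 libraries. Alternatives were DESeq2 1.42.0, RLE factors, no filter, a replicate block, each library left out, limma 3.58.1 on log2(FPKM + 1) or log2(FPKM + 0.1) for genes whose mean FPKM was at least 1, the former without a filter, and on log2(TPM + 1). A fit without mitochondrially encoded genes was added after the data were seen. The tests were checked on 1 simulated data set, where the share of false calls was above the adjusted threshold with edgeR, DESeq2 and limma. It held far fewer changed genes than were called here, and limma was run there on scaled counts. The share of false calls among the genes called here is therefore not known from it.

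Members and lists were chosen with earlier results of these data known, as were the motifs, the gene order shown and the promoters. Values in every library are given for members called with an absolute log2 fold change of at least 0.5, for the 2 members with the highest FPKM in each role and for KRT8 and KRT18. Up to 3 genes with the smallest adjusted p are named from each list. CDH1, CTNNA1, DST, KRT37, KRT86, MPDZ, MAGI1, the overlapping genes and the polarity genes of the closing part were chosen after their values were seen. Shared sequence was the share of 75-base windows of a gene's GENCODE 29 transcripts that occur in transcripts of other genes, on either strand. Some genes of the lists are not reported here and stay out of the lists' counts.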

Additional observations from a re-analysis of the deposited data

How the results depend on the processing

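Of the 17 calls among members, 8 were made under all of the 15 other settings that tested the gene (KRT80, KRT13, KRT15, CLDN12, OCLN, DSG2, DSC3 and PPL) and 11 in all 6 fits that leave out a library, and no call changed sign. Against 8 members higher and 9 lower, leaving out a library gave 5 to 8 higher, with 5 without cepharanthine replicate 2 or 3, and 7 to 10 lower. The limma fit on log2(FPKM + 1) without a filter gave 4 higher, and the fit on TPM 4 lower, whose raised centre is given above. For the fit without a filter the cause was not tested. With a replicate block 7 members were higher and 8 lower, and KRT8 (adjusted p = 0.0752) and CLDN3 (adjusted p = 0.0831) were not called. The labels do not say that equal numbers mark a shared culture, and deviations of same-numbered libraries correlated at 0.00, -0.01 and -0.07, so the numbers did not pair the libraries. Members of low level, such as KRT13 at 2.35 CPM in controls, KRT17 and KRT5, rest on few counts, and 3 libraries a group limit small differences such as that of KRT8.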

Other observations

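Polarity genes, which position the tight junction in epithelia, were noticed within the list of other tight junction genes after their values were seen. Of 8 such genes tested 6 were higher and 0 lower, with a median log2 fold change of 0.40. Over all genes tested 14.7% were higher and 13.2% lower. The parent list had 8 rises and 5 falls, with MPDZ (-0.46 ± 0.09) and MAGI1 (-0.82 ± 0.11), outside this group, among the falls. PARD6B went from 3.03 ± 0.152 to 5.48 ± 0.594 CPM (SD, n = 3 per group), the atypical kinase PRKCI from 62.6 ± 3.73 to 85.0 ± 3.23 CPM and PARD3 from 102 ± 1.15 to 135 ± 4.60 CPM. PRKCZ, PATJ and MPP5 also passed as higher, while PARD6A (0.29 ± 0.19) and CRB3 (0.37 ± 0.21) did not pass. As a group picked for its values this count has no test. The number was 4 without control replicate 3 and 7 after rescaling to TPM.

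KRT85, a hair keratin on chromosome 12, varied widely within both groups, with 1194, 96 and 1081 counts in controls and 31, 453 and 0 counts in treated libraries. It did not pass (-2.36 ± 1.29, edgeR adjusted p = 0.211). Its neighbours KRT83 (3.96 ± 0.589 to 3.43 ± 1.38 CPM) and KRT86 did not show such swings.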
